A study of Mus musculus with 6 samples.

Results

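Receptors for the interleukins that share signalling chains were measured in N18-Fms cells with and without CSF-1. The set held 10 genes, taken by name from the 36163 genes named on the array: the receptor chains Il2rb, Il2rg, Il4ra, Il5ra, Il10rb, Il13ra1, Il13ra2 and Il15ra, and the ligands Il7 and Il15. They were represented by 12 probes, 2 each for Il4ra and Il15ra.

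N18-Fms cells derive from C2H, a clonal line from a prostate tumor of the TRAMP mouse, through N18, a single subclone that carries firefly luciferase. A retrovirus added murine c-fms, the gene of the CSF-1 receptor, and the infected population was sorted in 2 rounds for the receptor at the surface. These features, and a culture medium with serum and dihydrotestosterone, were common to the 3 groups, and the parental cells release CSF-1 of their own, so that unstimulated cells received no added CSF-1 but were not without it. Each group had 2 arrays: cells left unstimulated, and cells given recombinant murine CSF-1 (100 ng/mL) over either 24 h or 48 h. The sample labels give these times, and the methods give shorter ones. The RNA came from 2 independent experiments on 1 line, so that p-values measured the spread between these cultures only.

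Cytokine receptors of this class have no enzyme of their own. A chain that binds one ligand pairs with a chain shared by several receptors, and JAK kinases bound to both chains phosphorylate STAT transcription factors, which induce SOCS proteins and Cish as inhibitors. Most of these receptors are best known from lymphocytes, eosinophils and macrophages, although the receptor for IL-4 and IL-13 made of Il4ra and Il13ra1 is widespread in epithelia and fibroblasts.

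On the 6 single-colour arrays, 58.7% to 72.0% of 59305 spots other than controls were well above background by the flag of the scanner software, and 0 were saturated. The 2 arrays with the most such spots were replicate 1 at 24 h with 72.0% and replicate 2 at 48 h with 70.4%. A level below is on the log2 scale, the processed signal of a probe divided by the 75th percentile of its array, so that 0 stands for that percentile. Levels of different probes cannot be set against each other. Csf1r, the transduced receptor gene, was bright in every group, with mean levels of 5.00 before stimulation, 5.23 after 24 h and 4.93 after 48 h. Of the epithelial markers, Krt8 gave signals from 66.75 to 404.3 by its brighter probe and from 28.09 to 61.29 by the other. Cdh1 was well above background on 0 of 6 arrays and Epcam on 1. By the brighter probe Krt8 was 1.98 higher at 48 h on the log2 scale (limma adjusted p = 0.0106). The other Krt8 probe had a mean level of -4.23 in unstimulated cells and -3.32 at 48 h. Krt18 was dim, with a log2 change of 0.89 at 48 h (limma adjusted p = 0.118). Krt5, well above background throughout by its brighter probe, had a log2 change of -0.25 at 48 h (adjusted p = 0.288).

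The probes of the 4 receptor genes that the results turn on are shown by their first 30 of 60 bases, 5′ to 3′, since each value below rests on such an oligonucleotide and 2 of them report on a single gene. The files place the probes on mouse build mm9 and do not say whether they lie in coding or untranslated sequence.
Il5ra, A_55_P1992592, chr6:106660378-106660437, minus strand: gcaggaacaacaatatgaactacccagcaa
Il13ra1, A_52_P552194, chrX:33710154-33710213, plus strand: taagtggtcctgtcaattctgtgttttatt
Il13ra2, A_55_P2327769, chrX:143818095-143818154, minus strand: ttcttgacatagagccagccagcaggagtc
Il4ra, A_55_P2017789, chr7:132722922-132722981, plus strand: acctgttgggaattccaaccctcaccagtc
Il4ra, A_55_P1966189, chr7:132712550-132712609, plus strand: atcccgaggaacagtgccagcactgtgtgt

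Stimulation with CSF-1 was accompanied by higher levels of most of the receptor chains that could be tested. Testing required that both arrays of some group showed the probe well above background. Of the 10 genes, 7 met this, and Il2rg, Il15 and Il7 did not. At 24 h, 5 of the 7 rose at least 2-fold with a limma adjusted p under 0.05 (Il5ra, Il13ra1, Il13ra2, Il4ra and Il2rb), where 4.55% of the 24648 genes tested were called up by the same rule. At 48 h, 6 of the 7 rose, Il10rb in addition, where 3.95% of the genes tested were called up. None of the 7 fell at either time, where 1.62% and 1.46% of genes were called down. The median log2 change of the tested members was 2.07 at 24 h and 1.75 at 48 h, beside 0.04 and -0.04 over all genes tested. The members were chosen with earlier results of these data known, so that these shares are no test of the set. Il13ra1 and Il2rb passed the filter on dim probes through the stimulated arrays alone, so that a tested gene of this kind had to be higher after stimulation. The comparisons at 24 h and 48 h share the unstimulated arrays, and leaving out 1 array changed the counts. Without replicate 2 of the unstimulated cells 3 members were called at 24 h and 3 at 48 h, and without replicate 1 of them 2 were called at 48 h. Without replicate 1 at 24 h, or without replicate 2, 3 were called at 24 h. Il13ra1 and Il13ra2 were called at both times whichever array was left out. Replicate 1 at 24 h lay on another slide than the other 5 arrays, and within the common slide 3 members were called at 24 h.

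**Figure D1:**
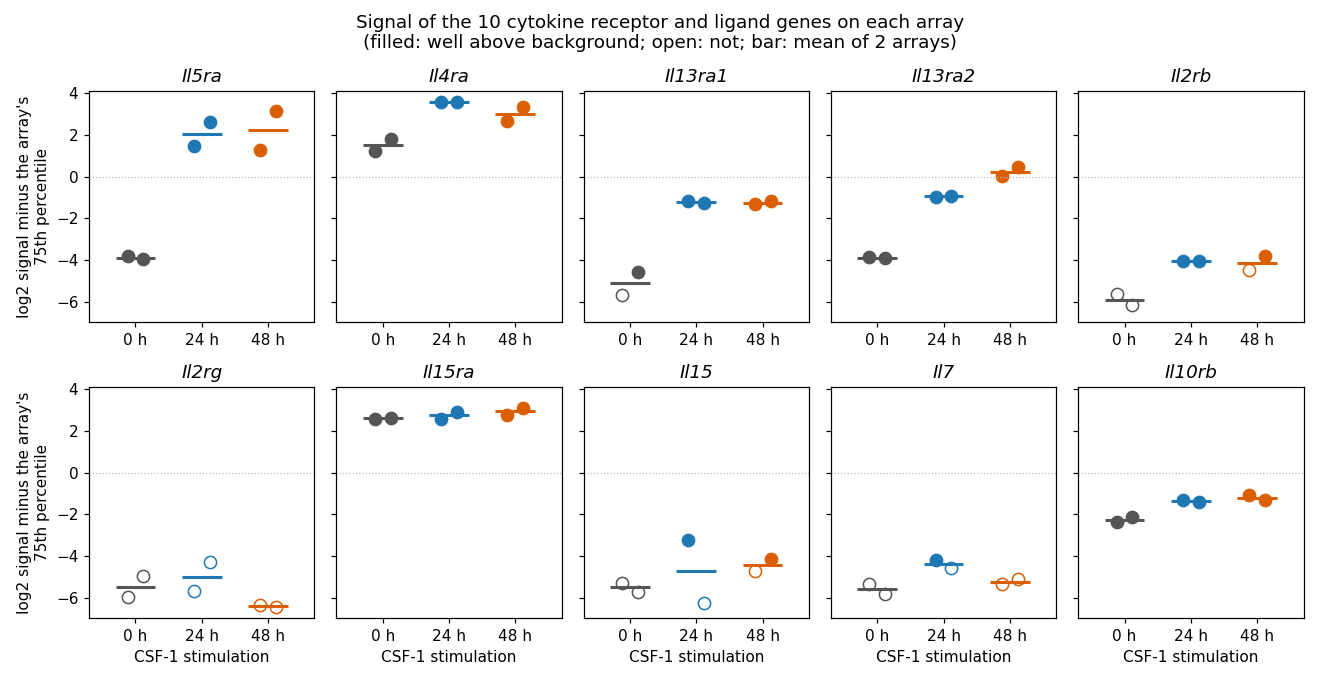
Level of each of the 10 genes (log2 signal relative to the 75th percentile, brightest probe) on the 2 unstimulated arrays (0 h), the 2 arrays at 24 h and the 2 at 48 h of CSF-1; filled points were well above background, open points were not, and bars are means of 2 arrays. Both arrays at each time lay above both unstimulated arrays for Il5ra, Il4ra, Il13ra1, Il13ra2, Il2rb and Il10rb. The same held for listed genes that were not called, such as Crlf2, Ifnar2 and Ifngr2. With 2 arrays a group such a separation is weak, and its share over all genes was not counted.

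Il5ra, the chain that binds IL-5, best known from eosinophils and B-1 cells, showed the largest change among the members tested. Its level was -3.83 and -3.96 on the unstimulated arrays, 1.46 and 2.62 at 24 h and 1.31 and 3.14 at 48 h, all 6 well above background. In signal, this was 38.8 and 39.34 before stimulation against 1365 to 5332 after it. The stimulated arrays did not overlap the unstimulated ones, while the 24 h arrays lay within the range of the 48 h arrays. The stimulated arrays differed much more among themselves than the unstimulated ones, with replicate 2 above replicate 1 at both times. The SD between the 2 arrays was 0.09 before stimulation, and it was 0.81 after 24 h and 1.30 after 48 h. The log2 change was 5.93 ± 0.67 (SE, n = 2 per group) at 24 h, with a 95% interval from 4.25 to 7.61, which is 61.0-fold (limma adjusted p = 0.00818). At 48 h it was 6.12, from 4.43 to 7.80, or 69.4-fold (limma adjusted p = 0.00739). Without replicate 2 of the unstimulated cells the adjusted p was 0.055 at 24 h and 0.0534 at 48 h, and without replicate 1 of them it was 0.0529 at 48 h, with log2 changes between 5.87 and 6.18. Over each array left out in turn the log2 change ran from 5.36 to 6.51 at 24 h and from 5.20 to 7.04 at 48 h. After a background correction with an offset it was 4.32 and 4.54, still past the threshold. Between 48 h and 24 h the change of 0.19 was far within the spread of the arrays (limma adjusted p = 0.924).

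Csf2rb, the common beta chain with which Il5ra signals, did not share this change. Its level was -1.99 and -2.30 in unstimulated cells, -1.86 and -1.84 at 24 h and -1.95 and -1.97 at 48 h, well above background throughout. The stimulated arrays lay just above the unstimulated ones, by 0.29 at 24 h with a 95% interval from -0.06 to 0.64 (limma adjusted p = 0.227) and by 0.18 at 48 h with one from -0.16 to 0.53 (limma adjusted p = 0.43). Csf2rb2, the mouse paralog of Csf2rb that serves the IL-3 receptor, had log2 changes of 0.70 and 0.53 by its brighter probe (limma adjusted p = 0.253 and 0.369). Without replicate 1 of the unstimulated cells Csf2rb2 passed the rule at both times, with 1.24 (adjusted p = 0.0334) and 1.08 (adjusted p = 0.0453). A dimmer probe of Csf2rb2, well above background on 0 unstimulated arrays, both at 24 h and 1 at 48 h, gave 1.54 and 0.40. In a limma fit of every probe on its own its adjusted p was 0.054 and 0.534. The dimmer probe of Csf2rb gave 0.35 and 0.33 in that fit (adjusted p = 0.427 and 0.453). The 2 paralogs are closely related in sequence, and how far their probes measure each other is not known. Il5, the ligand, had log2 changes of -0.00 and -0.01 (limma adjusted p = 0.996 and 0.987), with 95% intervals from -0.40 to 0.40 and from -0.41 to 0.40.

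Il4ra, Il13ra1 and Il13ra2, which encode chains of the IL-4 and IL-13 receptors, were each higher at both times. Il2rg, which also serves the IL-4 receptor, was not detected and is described below. Il4ra binds IL-4, and with Il13ra1 it forms the receptor through which IL-13 signals. Il13ra2 binds IL-13 with high affinity, has a short cytoplasmic tail and is mostly described as a decoy.

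Il13ra1 changed from the edge of detection to a clear signal. Its level was -5.66 and -4.56 in unstimulated cells, of which the second alone was well above background, -1.17 and -1.25 at 24 h and -1.32 and -1.16 at 48 h. All 4 stimulated arrays lay within a narrow band, far above both unstimulated ones. The fitted log2 changes were 3.90 (95% interval 3.01 to 4.79, limma adjusted p = 0.00487) and 3.87 (adjusted p = 0.00456). With each unstimulated array set no lower than the dimmest probe detected on it, the increase was at least 10.9-fold at 24 h and at least 10.7-fold at 48 h. After a background correction with an offset the log2 changes were 1.98 and 1.93, still past the threshold. Between 48 h and 24 h the difference was -0.03.

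Il13ra2 rose in 2 steps. Its level was -3.83 and -3.92 in unstimulated cells, -0.97 and -0.90 at 24 h and 0.03 and 0.46 at 48 h, with all 6 arrays well above background. The 3 groups did not overlap, each pair of arrays lying above the pair of the earlier time. The log2 change was 2.94 ± 0.17 (SE, n = 2 per group) at 24 h, with a 95% interval from 2.52 to 3.36, or 7.67-fold (limma adjusted p = 0.00176). At 48 h it was 4.13, from 3.70 to 4.55, or 17.5-fold (limma adjusted p = 0.000927). After a background correction with an offset the log2 changes were 1.79 and 2.81, still past the threshold. The step from 24 h to 48 h was 1.19, from 0.76 to 1.61, with an unadjusted p of 0.00065 in limma. Adjusted over all genes that p was 0.121, and 0% of the 24648 genes passed the adjusted rule in this comparison. By the unadjusted rule Il13ra2 was the only member called, beside 0.868% of genes called up and 560 genes called in either direction. The adjusted p of the step ranged from 0.016 to 0.464 over the alternatives, and it passed after both background corrections with an offset (1.02, adjusted p = 0.0213, and 1.06, adjusted p = 0.016) and with a prior spread that follows intensity (adjusted p = 0.028).

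Il4ra was well detected before stimulation and rose further. By its brighter probe the level was 1.23 and 1.82 in unstimulated cells, 3.57 and 3.61 at 24 h and 2.69 and 3.36 at 48 h. The groups did not overlap, and the 48 h arrays lay between the unstimulated arrays and those at 24 h. The log2 change was 2.07 at 24 h (95% interval 1.34 to 2.80, 4.20-fold, limma adjusted p = 0.0134) and 1.50 at 48 h (0.77 to 2.23, 2.83-fold, limma adjusted p = 0.0309). The drop of 0.57 from 24 h to 48 h did not pass the test (adjusted p = 0.46). The other probe, which lies elsewhere in the gene, gave -1.76 and -1.66, then -0.08 and -0.06, then -0.47 and -0.29, and its arrays showed the same order. In a fit of every probe on its own its log2 changes were 1.64 (adjusted p = 0.00367) and 1.33 (adjusted p = 0.00537). The call by the brighter probe was lost at 24 h without replicate 1 of the unstimulated cells (adjusted p = 0.058) or without the one or the other 24 h array (0.0639 and 0.0663), and at 48 h without any 1 of 5 arrays, all but replicate 1 at 48 h, with adjusted p-values from 0.061 to 0.121.

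**Figure D2:**
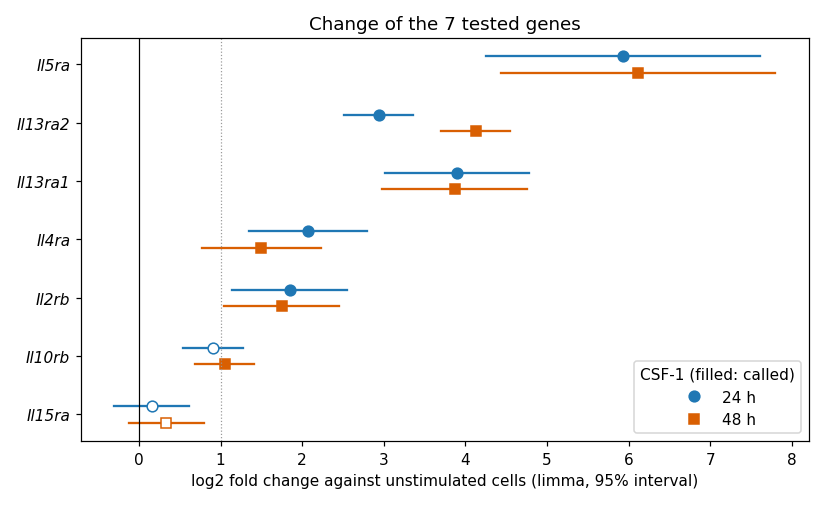
Fitted log2 fold change against unstimulated cells (limma, horizontal axis) of the 7 tested members at 24 h (circles) and 48 h (squares) with 95% intervals; filled symbols passed an adjusted p of 0.05 and 2-fold (dotted line at 1). The intervals of Il13ra2 do not overlap between the times, 2.52 to 3.36 against 3.70 to 4.55, and those of Il15ra span 0.

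Of the members that are chains of the IL-2 and IL-15 receptors, Il2rb was dim but passed the test, Il2rg was not detected and Il15ra did not pass. Il2ra, an IL-2 receptor chain outside the set, was well above background on 1 of 6 arrays and was not tested. Il2rb is the signalling chain shared by the IL-2 and IL-15 receptors. Its level was -5.64 and -6.16 in unstimulated cells, neither well above background, -4.04 and -4.06 at 24 h, both well above it, and -4.49 and -3.81 at 48 h, of which the second was. The stimulated arrays lay above the unstimulated ones without overlap, at signals of 24.62 to 43.1 against 8.548 and 11.07. Il2rb passed the filter through the 24 h arrays alone, so that as a tested gene it had to be higher there. The fitted log2 changes were 1.85 and 1.75 (limma adjusted p = 0.0167 and 0.0199). In processed signal the increase was at least 2.18-fold at 24 h. At 48 h no such bound is given, since replicate 1 there was not well above background. After a background correction with an offset the log2 changes were 0.50 and 0.44, below 2-fold. With quantile normalization the 24 h call was lost (1.18, adjusted p = 0.0591). The call was lost without replicate 2 of the unstimulated cells at both times (adjusted p = 0.0799 and 0.0877), at 48 h without replicate 1 of them (0.0568), at 24 h without the one or the other 24 h array (0.0769 and 0.0744) and at 48 h without replicate 2 at 48 h (0.0662).

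Il2rg, the common gamma chain that completes the receptors for IL-2, IL-4, IL-7, IL-9, IL-15 and IL-21, was well above background on 0 of 6 arrays. Its levels were -5.96 and -4.97 in unstimulated cells, -5.66 and -4.30 at 24 h and -6.35 and -6.47 at 48 h. Those at 24 h overlapped the unstimulated ones, and both at 48 h lay below them. With no array well above background, this order is not read as a change. Its probe (A_66_P113749) lies at chrX:98460130-98460189 in mm9.

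Il15ra, which presents IL-15 to Il2rb and Il2rg, had levels of 2.60 and 2.60 in unstimulated cells, 2.58 and 2.94 at 24 h and 2.76 and 3.11 at 48 h by its brighter probe. The 24 h arrays enclosed the unstimulated ones, and both 48 h arrays were slightly higher. The log2 change was 0.16 at 24 h (95% interval -0.30 to 0.62, limma adjusted p = 0.628), where median centring of the arrays turned its sign, and 0.34 at 48 h (-0.12 to 0.80, adjusted p = 0.283). The dimmer probe, made to another transcript record of the gene, gave -3.43 and -4.05, then -2.88 and -2.89, then -3.12 and -3.32, with changes of 0.86 and 0.52 (adjusted p = 0.0672 and 0.2).

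The ligands Il15 and Il7, growth factors of T cells and natural killer cells, were at the edge of detection. Il15 was well above background on 1 array at 24 h (level -3.21) and 1 at 48 h (-4.13), and on none of the unstimulated arrays (-5.27 and -5.71). The 2 arrays at 24 h differed more than the groups, the second at -6.24, and the remaining array at 48 h was at -4.70. Il7 was detected on replicate 1 at 24 h alone (-4.19), beside -4.59 on the other 24 h array, -5.32 and -5.83 in unstimulated cells and -5.36 and -5.12 at 48 h. Each of these detections came from 1 of the 2 arrays with the highest share of spots above background, and the part of that share in them was not tested.

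Il10rb, the chain shared by the receptors for IL-10, IL-22 and the lambda interferons, rose by a small amount. Its level was -2.38 and -2.12 in unstimulated cells, -1.30 and -1.39 at 24 h and -1.09 and -1.31 at 48 h, all well above background. Every stimulated array was above both unstimulated ones, and the 2 times overlapped each other. At 24 h the change of 0.91 (1.87-fold, limma adjusted p = 0.019) stayed under 2-fold, and at 48 h the change of 1.05 (95% interval 0.69 to 1.42, 2.07-fold, adjusted p = 0.0137) passed. So close to the threshold, the 48 h call was lost with median centring (0.95) and after background correction with an offset (0.71), and without replicate 1 of the unstimulated cells (adjusted p = 0.07) or replicate 1 at 48 h (adjusted p = 0.0655).

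**Figure D3:**
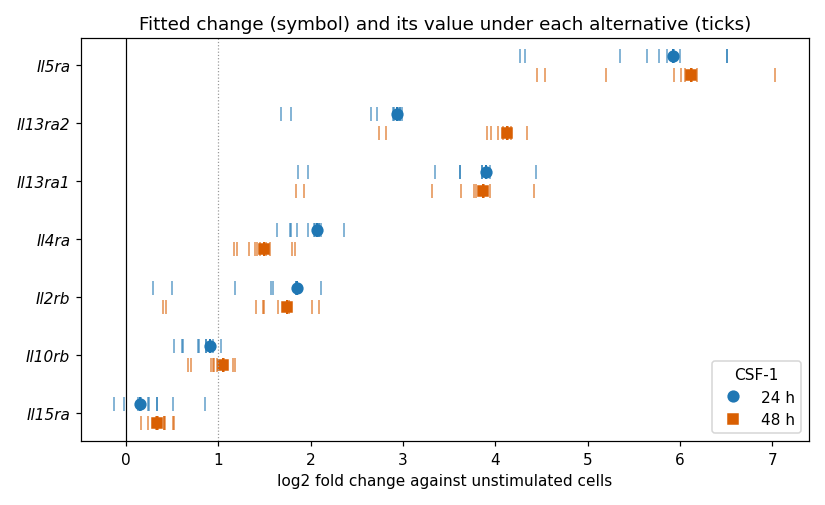
Log2 fold change against unstimulated cells of the 7 tested members at 24 h (circles) and 48 h (squares), with a tick for its value under each alternative processing or left-out array. Values of Il5ra, Il13ra1, Il13ra2 and Il4ra stayed above 1 under each alternative, with a lowest of 1.17 for Il4ra, whereas those of Il2rb reached down to 0.30.

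Chains that pair with the members or are close relatives of them were read beside them. They are called partner chains here, although not every one of them pairs with a member. Of 19 partner chains listed, 18 were on the array and 10 were tested. By limma 0 of the 10 passed the rule at 24 h or at 48 h. Over all genes tested 4.55% and 3.95% were called up and 1.62% and 1.46% down, so that 0 of 10 is near the background. Their median log2 change was 0.35 and 0.40, beside 0.04 and -0.04 over all genes. By the adjusted p without a fold limit 2 passed at both times, where 3454 of the 24648 genes tested did at 24 h and 3441 at 48 h. Crlf2, the receptor chain for TSLP, was 0.54 and 0.67 higher (limma adjusted p = 0.0423 and 0.0254). Ifngr1, the ligand-binding chain of the interferon gamma receptor, was lower by 0.71 and 0.68 on the log2 scale (log2 changes of -0.71 and -0.68, limma adjusted p = 0.015 and 0.0172). The other bright chains were Ifnar2 of the type I interferon receptor, with 0.70 and 0.68 (adjusted p = 0.0555 and 0.0584), and Ifngr2, with 0.37 at each time (adjusted p = 0.112 and 0.114).

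Among 18 ligands listed, 15 were on the array, 8 were tested and 1 was called up, a count near the 4.55% and 3.95% called up over all genes. Csf2, which encodes GM-CSF, was detected above background on 0 of the 2 unstimulated arrays, on both at 24 h and on 1 at 48 h. It passed the filter through the stimulated arrays alone, so that as a tested gene it had to be higher there. It rose at least 2.54-fold in processed signal at 24 h, with a limma adjusted p of 0.0112 at 24 h and 0.0167 at 48 h. At 48 h no such bound is given, since replicate 1 there was not well above background. The call was lost at 24 h without replicate 2 of the unstimulated cells or without the one or the other 24 h array. At 48 h it was lost without the one or the other unstimulated array or without replicate 2 at 48 h. It was also lost after a background correction with an offset, where the log2 change fell as low as 0.35 at 24 h and 0.39 at 48 h. The brightest others were Il5, described above, Il28b, an interferon lambda gene with -0.20 and -0.25 (adjusted p = 0.413 and 0.308), and Il10 with 0.19 and 0.08 (adjusted p = 0.49 and 0.804).

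Of the JAK kinases, STAT factors and inhibitors that act next to these receptors, 6 of 10 were called up at both times, where 4.55% and 3.95% of all genes were, and 0 down, where 1.62% and 1.46% were. Their median log2 change was 1.21 at 24 h and 1.14 at 48 h. The list was written with earlier results of these data known, so that these shares are no test of it. Without replicate 2 at 24 h, 3 were called at 24 h, and without replicate 1 of the unstimulated cells, 3 were called at 48 h. Cish, an inhibitor induced by STAT5, had levels of -0.63 and -0.61 in unstimulated cells, 2.77 and 2.76 at 24 h and 2.20 and 2.66 at 48 h, with log2 changes of 3.38 and 3.05 (limma adjusted p = 0.00145 and 0.00142). Stat5a, the factor downstream of the IL-2, IL-5 and GM-CSF receptors, was at -3.61 and -3.52, then -0.00 and 0.07, then -1.47 and -0.89, and rose by 3.60 and 2.39 (adjusted p = 0.00176 and 0.00393). Both genes were higher on every stimulated array, and the 48 h arrays of Stat5a lay between the other groups. Its step of -1.22 from 24 h to 48 h did not pass (adjusted p = 0.139).

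Jak3, the kinase that binds the common gamma chain, rose by 1.86 and 1.69 (limma adjusted p = 0.00248 and 0.0024), while Il2rg itself was not detected. Jak2, which binds the common beta chain, rose by 1.10 and 1.24 (adjusted p = 0.0121 and 0.00921), Stat3 by 1.35 and 1.04 (adjusted p = 0.0129 and 0.0256) and the inhibitor Socs1 by 1.33 and 1.66 (adjusted p = 0.012 and 0.00702). The 48 h call of Stat3 was weak: it was lost under 13 of 21 alternatives, among them 5 of the 6 fits without 1 array (all but that without replicate 2 of the unstimulated cells), and its other probe gave 0.92 at 48 h (adjusted p = 0.0613). Those of Jak2 and Socs1 were lost under 5 and 6 of 20 alternatives at 24 h and under 3 and 2 at 48 h. Stat6, the factor that serves Il4ra and Il13ra1, had log2 changes of -0.07 and -0.08 (adjusted p = 0.809 and 0.779), with signs that turned under some alternatives. Jak1, which binds Il4ra, Il2rb and Il10ra, had -0.37 and 0.00 (adjusted p = 0.098 and 0.993), and Stat5b had 0.27 and -0.09 (adjusted p = 0.256 and 0.711).

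**Figure D4:**
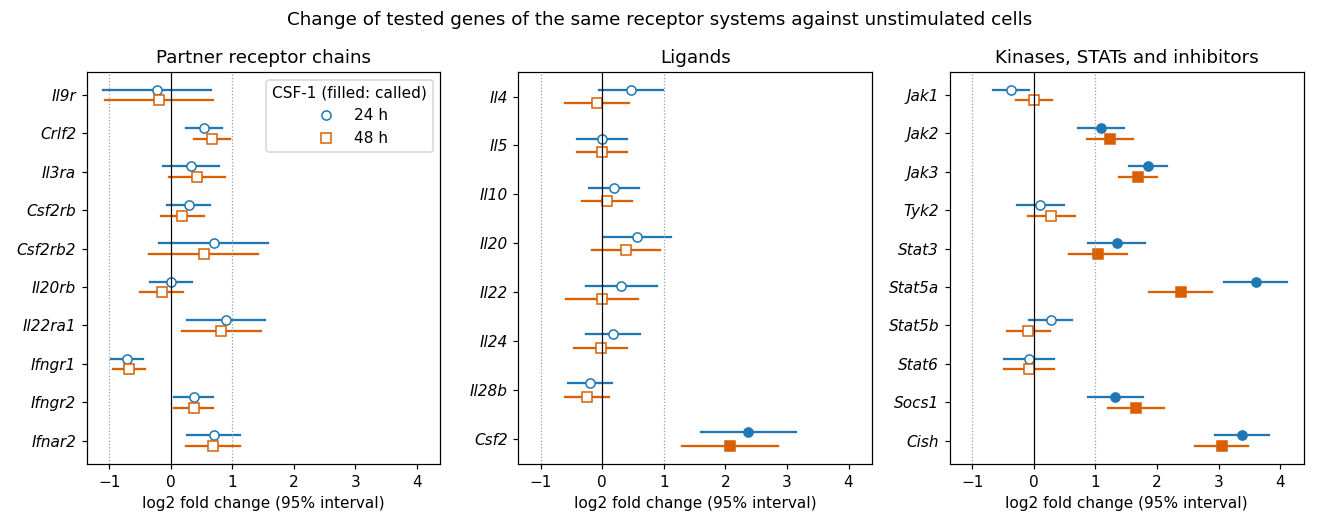
Fitted log2 fold change against unstimulated cells (limma, with 95% intervals) at 24 h (circles) and 48 h (squares) of the tested partner chains (left), ligands (middle) and kinases, STAT factors and inhibitors (right); filled symbols passed an adjusted p of 0.05 and 2-fold (dotted lines). None of 10 partner chains (partners or close relatives of the members), 1 of 8 ligands and 6 of 10 signalling genes passed.

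Genes whose pattern was nearest to that of the most changed members were sought by the root mean square difference over the 6 arrays. Each gene was centred on its unstimulated mean, and the search covered the 13852 other tested genes with a symbol in RefSeq, not all 24648. Nearest to Il5ra were 4930459C07Rik (0.42), Trim30a (0.59) and Oas2 (0.59). Nearest to Il13ra1 were Fst, which encodes follistatin (0.24), Samd5 (0.27) and Bfsp1 (0.29). Nearest to Il13ra2 were Gch1 (0.19), Parp10 (0.22) and Dtx3l (0.24), with log2 changes of 2.90 to 3.13 at 24 h and 3.85 to 4.03 at 48 h. These genes were picked for the likeness over the same arrays, so that shared steps follow from the choice.

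Since these receptors are known from leukocytes, markers of T cells, B cells, natural killer cells and macrophages were read on the same arrays. Of 25 markers, 23 were on the array, with 12 and 12 well above background in unstimulated cells, 17 and 13 at 24 h and 13 and 15 at 48 h. Their summed signal was 36530 to 38190 in unstimulated cells, 32930 to 34450 at 24 h and 32390 to 35290 at 48 h. Of 14 tested, 0 were called at 24 h and 1 at 48 h, Mpeg1, a macrophage gene that was 3.12 higher (limma adjusted p = 0.00142). All 4 stimulated arrays had a lower summed signal than both unstimulated ones, but their median signal over the markers was higher, at 28.9 and 31.2 before stimulation, 62.8 and 60.8 at 24 h and 48.4 and 36.5 at 48 h. Itgam and Cd4 made up most of the sum, by 1 bright probe each with signals of 12710 to 23230 and 7874 to 13380, while their other probes gave no more than 234.7. Cd14 was higher at both times, by 0.87 and 0.69 (adjusted p = 0.0101 and 0.0191), under 2-fold. Ptprc, the pan-leukocyte marker, gave dim signals of 34.14 and 49.19 before stimulation, 72.03 and 60.8 at 24 h and 48.37 and 42.22 at 48 h, with log2 changes of 0.68 and 0.15 (adjusted p = 0.0872 and 0.685). The lymphocyte markers Ms4a1, Cd3g, Klrk1 and Cd2 were well above background on 0 of 6 arrays. The part of cells that express Mpeg1, Cd14 or Ptprc in the changes of the members was not tested. In RNA from a whole culture, more cells that express a gene and more RNA per cell cannot be told apart.

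RefSeq promoter windows, 250 bases before to 50 bases after the start on GRCm38.p6, were at hand for 6 of the 10 members. They were searched on both strands for the letters TTCNNNGAA (STAT sites), TTCNNNNGAA (the wider STAT6 spacing), GAAANNGAAA (interferon response element) and TGANTCA (AP-1), none of which contains another. These letters occurred in 8.3%, 6.95%, 3.44% and 7.81% of 32851 windows of the same length. Of the 7 windows of the members, 3 held TGANTCA, 1 held TTCNNNNGAA and none held the other motifs. The 2 most changed members with a match are shown, 5′ to 3′ in the direction of the gene, with the matches in capitals.
Il5ra, chr6:106748988-106749287, minus strand: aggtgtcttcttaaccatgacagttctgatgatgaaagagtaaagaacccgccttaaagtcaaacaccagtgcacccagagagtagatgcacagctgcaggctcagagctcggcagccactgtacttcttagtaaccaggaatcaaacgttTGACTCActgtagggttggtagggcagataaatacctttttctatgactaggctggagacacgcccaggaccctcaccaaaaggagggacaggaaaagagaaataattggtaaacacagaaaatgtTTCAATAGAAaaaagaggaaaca
Il13ra2, chrX:147429143-147429442, minus strand: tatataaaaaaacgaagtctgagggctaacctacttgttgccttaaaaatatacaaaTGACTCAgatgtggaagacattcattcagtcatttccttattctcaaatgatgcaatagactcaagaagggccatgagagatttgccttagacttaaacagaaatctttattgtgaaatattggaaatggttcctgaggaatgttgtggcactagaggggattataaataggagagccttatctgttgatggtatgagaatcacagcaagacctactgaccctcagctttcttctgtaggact
Counted in bases from the transcription start, the match to TGANTCA in Il5ra lies at -99 and that to TTCNNNNGAA at 27, and the match to TGANTCA in Il13ra2 lies at -193. The third match to TGANTCA was in a window of Il15ra, which did not pass the test. A match of letters is no binding site.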

How the data were processed

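Expression in N18-Fms cells was measured on 6 single-colour Agilent mouse arrays, 2 per group, grouped by the sample labels. Spot signals come from Feature Extraction 11.0.1, per the labels. What the authors deposited for each array is a processed signal, a linear intensity with local background removed and no normalization between arrays. A table of log2 values of 44569 probes was deposited as well. Its differences between arrays lay within 0.05 of those of the log2 signals, apart from a constant per array, for 99.81% of them, and how it was scaled and centred is not given in the sources used here.

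Outlier spots were dropped, repeated spots averaged, and log2 signals expressed relative to the 75th percentile of their array. The brightest probe stood for a gene, and a gene was tested if some group had both of its arrays well above background (24648 of 36028 genes). Groups were compared with limma 3.58.1 in R 4.3.3 (2-sided, all 6 arrays in 1 fit, 3 residual and 2.39 prior degrees of freedom). Calls needed a Benjamini-Hochberg adjusted p below 0.05 together with a change of 2-fold or more. Ratios written as "at least" set each dim array no lower than the dimmest probe well above background on it. They hold for the processed signal only, and are given where both arrays of the higher group were well above background. With 2 arrays a group an exact permutation test cannot go below 0.333. On simulated data with 200 changed genes, 79% of changes of 2 on the log2 scale and 91% of 3 were recovered at 24 h. The number of arrays limits the precision. Replicate arrays correlated at 0.9944 or above across probes, with 0 identical values.

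The members and gene lists were chosen with earlier results of these data known. Named were all members, every listed gene called at both times with the 3 brightest others of each list, and the 3 genes of nearest pattern to each of the 3 most changed members; other partner chains were named after their values were seen. Alternatives covered scaling, background correction with normexp (offset 50), the authors' log2 values, the filter, probe choice, the prior spread, groups in the fit, replicate and slide blocks, the methods' t-test, call rules and each array left out. Human cells and other assays of the study were not analysed here. Some markers are not reported here.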

Additional observations from a re-analysis of the deposited data

How the results depend on the processing

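With 2 arrays a group, calls of single genes were fragile while the direction of each of the 5 members called at both times held under every alternative that gave a value. Members called at 24 h, 5 in all, became 3 with all 6 arrays required above background, 3 with the slide as a block and 0 by the methods' t-test after Benjamini-Hochberg adjustment, which called 0 of all genes. Of the 6 at 48 h, 3 were called with no filter on dim probes, which adjusts over more genes, and 0 by that t-test. For 48 h against 24 h, 1 member was called after either normexp correction, with an intensity trend, by the unadjusted p and by the unadjusted t-test. The called ligand became 0 after either normexp correction, with all 6 arrays above background and by the adjusted t-test at both times, with no filter at 48 h, and with the slide block at 24 h. Signalling genes went from 6 to 0 by the adjusted t-test, and 1 was called for 48 h against 24 h after either normexp correction, with the trend and unadjusted. Without a fold limit 2 partner chains were called at each time, beside 3454 and 3441 of all genes. Leaving out 1 array gave 3 to 5 members at 24 h, 2 to 5 at 48 h and 0 at 48 h against 24 h, 0 to 1 partner chains, 0 to 1 ligands, and 3 to 6 signalling genes. Over all genes, calls ran from 0 to 3454 around 1521 at 24 h, from 0 to 3441 around 1332 at 48 h and from 0 to 560 around 0 between the times.

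Signs turned for small changes that passed no test, and the cause was not tested. Under median centring, which moved the median of all genes to -0.247 at 24 h and -0.144 at 48 h from 0.037 and -0.044, this was Il15ra at 24 h (-0.128), Il10 (-0.094 and -0.0245), Jak1 at 48 h (-0.0975) and Stat5b at 24 h (-0.0106). By another probe or the mean of probes it was Stat6 at 24 h (0.246 and 0.0254) and Il28b (0.402 and 0.103 at 24 h, 0.127 at 48 h by the probe). Il5 turned with the authors' log2 values (0.0016 and 0.0065) and, at 24 h, the slide block (0.0157), Stat6 at 24 h with the slide block (0.0527) and Jak1 at 48 h with normexp (-0.0011). With 1 array left out, values ran from -0.0249 to 0.335 for Il15ra at 24 h, from -0.0302 to 0.0258 and from -0.208 to 0.196 for Il5 at 24 h and 48 h, from -0.199 to 0.0527 and from -0.221 to 0.0531 for Stat6, and from -0.0675 to 0.218 for Il10 and -0.0732 to 0.0775 for Jak1, both at 48 h.

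Whether replicate numbers pair the groups is not stated; deviations of same-numbered arrays correlated at 0.128, 0.0941 and 0.199. With the replicate number as a block, 5 members were called at 24 h, 6 at 48 h and 0 between the times, and all genes called were 1550 and 1398, so the block changed no other call of a member.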
